A study of Mus musculus with 14 samples.

Results

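Type I interferon response genes were followed through the cells of white nodules from a mouse line in which Eif3e, a subunit gene of the translation initiation complex eIF3, is deleted in activated B cells. The list held 39 genes, of which 37 were measured among the 32285 genes of the RNA matrices. Mx1 and Mx2 were not analysed here. The genes were selected from earlier results of these same data, in which a subset of the T cell clone of a liver nodule (mouse 30) carried transcripts of this kind, so the levels in the T cells of mouse 30 are a description. Mouse 30 has no part in the B-like and macrophage-like comparisons below and does take part in the neutrophil-like, receptor and interferon-high comparisons, where values without it are given.

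Type I interferons (IFN-β and the IFN-α family) are secreted by cells whose sensors have met foreign or misplaced nucleic acid. They bind the receptor formed by IFNAR1 and IFNAR2, and the kinases JAK1 and TYK2 then start a signal that ends at interferon-stimulated response elements near the target genes, where STAT2 and IRF9 are part of the bound complex. The products include ISG15, a ubiquitin-like modifier, the IFIT proteins and oligoadenylate synthetases, which act on viral RNA, the RNA sensors RIG-I (Ddx58) and MDA5 (Ifih1), and IRF7, which takes part in making more IFN-α. Many of these genes also respond to IFN-γ or directly to IRF3, so a level of one gene does not name its inducer.

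Each of the 7 mice gave 1 RNA library of the white nodules of the organ named below, and the mouse is the unit of replication. The labels do not say how many nodules went into a library, and that of mouse 34 covers lung and thymus together. The tumors arose in or from Eif3e fl/fl mice with Cre expressed from the Ighg1 (Cγ1) locus, on a C57BL/6J background, and a Rosa26-YFP reporter was present in mice 29, 31, 32 and 34 but not in 27, 30 and 33. Immunoglobulin (BCR) receptors were sequenced in mice 27 (liver, 12 months), 29 (lung, 12 months), 31 (spleen, 13 months), 33 (thymus, 16 months) and 34 (lung and thymus, 9 months). T cell receptors (TCR) were sequenced in mice 30 (liver, 14 months) and 32 (spleen, 12 months). The nodule of mouse 27 was a secondary tumor grown in a Rag2-/- recipient, which has no mature B or T cells of its own. Mouse 34 had been reconstituted with cKO marrow mixed with marrow of B cell-deficient JHT mice. The libraries of those 2 mice can therefore hold host or JHT-derived cells without these alleles, and whether a given cell of any library had lost Eif3e was not tested. No nodule of a control mouse was analysed here, organ and mouse cannot be told apart, and the part of the storage and dissociation that preceded capture was not tested.

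The libraries held 77442 cells, and 75503 were kept. Total counts of unique molecular identifiers (UMIs, each marking a captured RNA molecule) ran from 19264039 in mouse 30 to 123456962 in mouse 32, and median UMIs per kept cell from 1364 to 5319. Any pair of libraries shared 78 to 278 cell barcodes, at most 2.27% of the smaller library. Cells were grouped into classes by clustering with the members and the other interferon genes left out, and were called X-like by marker genes. Clusters that did not meet the naming rule left 7796 cells unnamed. Most of these cells lay in clusters with B cell markers, and they have no part in the B-like class. The genes Cd3d, Cd3e and Cd3g summed to 618 to 1681 CPM (UMIs of a gene or list per 1000000 UMIs of the same cells) in T-like cells of the 7 mice and to 3.40 to 13.5 CPM in B-like cells of the 5 BCR mice. The B cell receptor component Cd79a averaged 761 CPM in B-like and 28.3 CPM in T-like cells of the BCR mice. Macrophage markers summed to 3744 to 12047 CPM in macrophage-like cells and to 3.22 to 26.0 CPM in T-like cells. Eif3e itself was read at 115 to 214 CPM over the whole libraries, and no group of this study is defined by its loss.

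The interferon-stimulated response element contains GAAA, any 2 bases, GAAA. These letters were searched on both strands, overlaps allowed, in RefSeq promoter windows of GRCm38.p6 running from 250 bases before to 50 bases after each start site. Of the 29 members with a window, 15 (51.7%) held the letters in at least 1 window, against 1079 of 27025 genes (3.99%). The stretches are shown for members on which the results below turn, on the strand of the gene, with the matched letters in capitals.
Isg15 (chr4:156200863-156200908, minus strand): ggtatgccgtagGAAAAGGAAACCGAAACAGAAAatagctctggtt
Ifit1 (chr19:34640773-34640825, plus strand): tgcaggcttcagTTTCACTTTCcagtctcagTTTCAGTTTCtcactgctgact
Ifit3 (chr19:34583361-34583428, plus strand): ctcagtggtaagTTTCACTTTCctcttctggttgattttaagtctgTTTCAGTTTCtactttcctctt
Ifit3b (chr19:34607757-34607824, plus strand): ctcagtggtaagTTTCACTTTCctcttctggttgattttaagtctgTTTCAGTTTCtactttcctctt
Bst2 (chr8:71537575-71537614, minus strand): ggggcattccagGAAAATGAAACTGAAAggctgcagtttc
Ifih1 (chr2:62646206-62646235, minus strand): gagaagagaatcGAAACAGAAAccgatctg
Rsad2 (chr12:26456551-26456584, minus strand): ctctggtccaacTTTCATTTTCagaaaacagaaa
In Isg15, which had the most UMIs of all members in the T-like cells of 6 mice, 3 matches overlapped between 78 and 57 bases before the start site. Ifit1, Ifit3, Ifit3b and Bst2 each held 2 matches, and those of Bst2 overlapped. The single match of Ifih1 lay after its start site, inside the transcribed region. The stretches of Ifit3 and Ifit3b were identical over all 68 bases. The transcripts of that gene pair are near-identical copies too, so the division of UMIs between Ifit3 and Ifit3b is uncertain. A match is not evidence of binding, and members without one, such as Irf7, may hold other letters.

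Summed over the members, T-like and macrophage-like cells held several times the share of B-like cells. The summed level in T-like cells was 4192 ± 2377 CPM (SD, n = 7). In mice 27, 29, 30, 31, 32, 33 and 34 it was 2627, 2910.0, 7504, 7774, 3449, 2489 and 2590.0 CPM. The spleen nodule of mouse 31 and the liver nodule of mouse 30 thus stood above the other 5 mice, which spanned 2489 to 3449 CPM. Macrophage-like cells reached 3897 ± 2296 CPM (n = 5), with 4234, 2034, 7693, 3269.6 and 2254 CPM in mice 27, 29, 31, 33 and 34. Mouse 31 was again the highest. B-like cells lay at 781 ± 242 CPM (n = 5), from 457 CPM in mouse 27 to 967 in mouse 34, and no mouse's B-like level reached the level of T-like or macrophage-like cells in any mouse. The unnamed cells, most of them in clusters with B cell markers, held 445 to 2057 CPM in the BCR mice. Their highest level lay just above the lowest macrophage-like level.

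**Figure D1:**
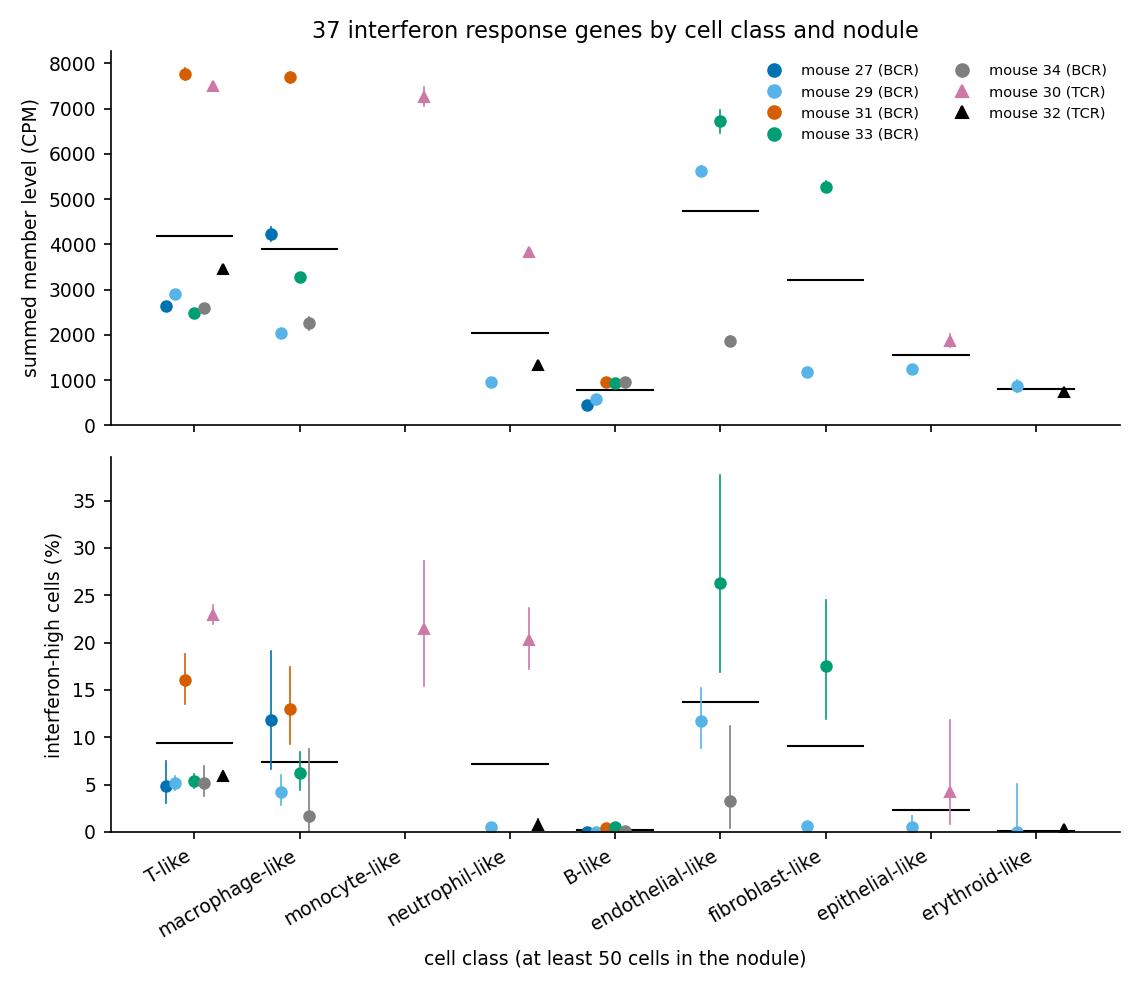
Summed level of the 37 measured members in CPM (top) and interferon-high cells in percent of the cells drawn (bottom) by cell class, for classes with at least 50 cells in a nodule. Circles are BCR mice, triangles TCR mice, vertical lines 95% exact Poisson (top) or Clopper-Pearson (bottom) intervals, and horizontal lines means over mice. B-like cells lie at 457 to 967 CPM, and T-like cells of mice 30 and 31 at 7504 and 7774 CPM.

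To compare single cells of unlike depth, 1000 UMIs were drawn from each cell that had as many. A cell with at least 6 distinct members among them (Ifit3 and Ifit3b counted as 1) was called interferon-high. Shallower cells were left out of the shares, which rest on 6452 of 9309 T-like cells in mouse 30 and 3355 of 5125 in mouse 29. Of the T-like cells drawn, 9.35 ± 7.21% (n = 7) were interferon-high, with 23.0% in mouse 30 (95% Clopper-Pearson interval 21.9 to 24.0), 16.0% in mouse 31 (13.5 to 18.8) and 4.89 to 5.88% in the other 5 mice. Macrophage-like cells gave 7.39 ± 4.89% (n = 5) and B-like cells 0.197 ± 0.226% (n = 5). B-like cells of mice 27 and 29 gave 0 of 5244 and 0 of 1715 cells. Taken as 3 cells over the cells drawn, this allows shares of up to about 0.0572% and 0.175%. These intervals and bounds cover counting error only. Before the draw, when deeper cells show more members, the T-like shares ran from 7.75% in mouse 29 to 48.7% in mouse 33, whose T-like cells were the deepest at a median of 3523 UMIs.

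Mouse 30 was also the highest for the myeloid cells it held. Its neutrophil-like cells reached 3824 CPM and 20.3% interferon-high cells, against 964 CPM and 0.506% in mouse 29 and 1334 CPM and 0.738% in mouse 32. The class was not alike across these mice. Leading genes included Camp, Ngp and Elane in the cluster mainly of mouse 32. They included Retnlg, Cxcl2 and Il1b in the clusters mainly of mice 29 and 30. The part of this in the levels was not tested. The neutrophil-like mean was 2041 CPM (n = 3), and 1149 CPM without mouse 30. Its monocyte-like cells, the only ones with at least 50 cells, stood at 7266 CPM with 21.5% interferon-high. Endothelial-like cells of mice 29, 33 and 34 held 5623, 6721 and 1856 CPM. Fibroblast-like cells of mice 29 and 33 held 1169.6 and 5273 CPM. Erythroid-like cells were near B-like cells, with 735 CPM in mouse 32 and 866 in mouse 29.

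In T-like cells the 3 leading members carried 36.7% (mouse 34) to 69.2% (mouse 31) of the members' UMIs. Since a UMI counts a molecule and values are not divided by gene length, shares of the members' UMIs are given rather than an order of genes. Isg15, Ifit1 and Ifih1 together took 46.6% to 69.2% of the members' UMIs in mice 27, 29, 30, 31 and 32. In mice 33 and 34, Isg15 was joined by Ifi27l2a, a small interferon-inducible protein, and by Sp100, a nuclear body component. Isg15 was at 897, 595, 2069.8, 2777, 1174, 308 and 326 CPM in mice 27, 29, 30, 31, 32, 33 and 34. Ifit1 followed at 271, 444, 1392, 1492, 466, 99.1 and 203 CPM in the same order, and Ifih1 at 307, 318, 779.7, 1114, 288, 139 and 213 CPM. All 3 were highest in mice 31 and 30 and lowest in mice 33 and 34. Sp100 varied much less, from 182 to 311 CPM, with its lowest value in mouse 27 and its highest in mouse 34.

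The remaining members of T-like cells spanned a wide range of mean levels (n = 7). Samd9l, Ifi203 and Herc6 averaged 179, 156 and 123 CPM. Trim30a, Parp14, Rtp4 and Ddx58 averaged 70.6 to 85.2 CPM, and Bst2 (tetherin, which holds budding virus at the membrane), Ifit3, Zbp1, Oasl1, Ifit2, Stat2, Irf9, Ifit3b, Ifi209, Rsad2 (viperin), Irf7, Ifi35 and Isg20 averaged 31.6 to 55.9 CPM. Ifi213, Xaf1, Slfn5 and Oasl2 averaged 11.8 to 24.3 CPM and Oas1a, Ifi204, Cmpk2, Usp18 and Dhx58 4.07 to 7.27 CPM. Oas3, Ifi44 and Oas2 were nearly unread, at 1.49, 0.956 and 0.144 CPM. Oas2 had no UMI in the T-like cells of mice 27, 31 and 34.

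**Figure D2:**
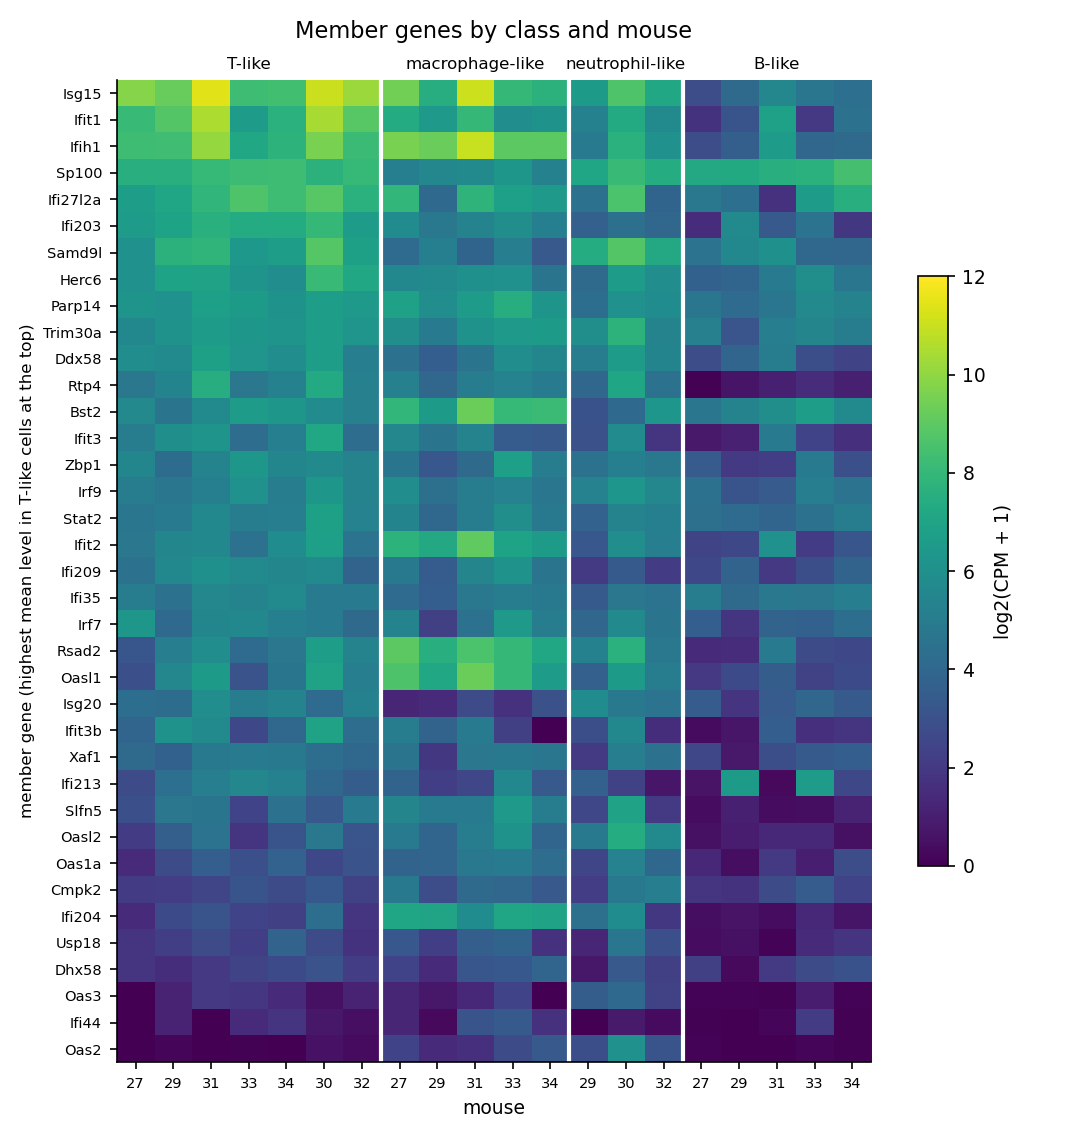
Level of each measured member as log2(CPM + 1) in T-like, macrophage-like, neutrophil-like and B-like cells of each mouse with at least 50 cells of the class, with genes ordered by mean level in T-like cells. Isg15, Ifit1 and Ifih1 lead in T-like cells, Ifi204 is at 56.6 to 134 CPM in macrophage-like cells, and Sp100 leads in the B-like cells of all 5 mice.

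Most members were lower in B-like than in T-like cells of the same 5 BCR nodules, none of which is mouse 30. Nearly all B-like cells with a called BCR belonged to the expanded clone, with 295 against 32 other called cells in mouse 29 and 3956 against 41 in mouse 31. T cell receptors were not sequenced in these nodules. Cell class and membership of the expanded clone therefore cannot be told apart here. In B-like cells Isg15 stood at 6.12, 16.7, 45.9, 25.6 and 19.7 CPM in mice 27, 29, 31, 33 and 34, where T-like cells had 897, 595, 2777, 308 and 326 CPM. Ifit1 stood at 2.42, 7.69, 117, 2.97 and 21.0 CPM in B-like cells and 271, 444, 1492, 99.1 and 203 CPM in T-like cells. The classes did not overlap for Isg15, and for Ifit1 only the B-like cells of mouse 31 lay above the lowest T-like value. By edgeR's quasi-likelihood test with the mouse as a block and Benjamini-Hochberg adjustment over all genes tested, Isg15 fell by 5.09 on the log2 scale (SE 0.64, adjusted p = 0.00168) and Ifit1 by 4.84 (SE 0.65, adjusted p = 0.00224).

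Of the 35 members tested, 27 were lower in B-like cells and 0 higher, while 23.1% of all 13071 genes tested were called, 13.1% lower and 9.98% higher. At an unadjusted p under 0.05, 30 members passed, all of them lower, and DESeq2 too called 0 higher. The median log2 fold change was -2.13 over the members and 0.08 over all genes. Rtp4, a chaperone of membrane receptors, had the largest fold among the called members, at 0.0336, 0.603, 1.09, 1.86 and 1.09 CPM in B-like cells against 25.7, 42.2, 179, 25.9 and 37.5 CPM in T-like cells (by edgeR -5.94, SE 0.78, adjusted p = 0.00207). Slfn5 (-4.52), Ifih1 (-4.09), Ifi203 (-3.98), Ifit3 (-3.61), Oas3 (-3.36), Ifit3b (-3.35), Oasl2 (-2.99), Usp18 (-2.83, the protease that removes ISG15) and Irf7 (-1.93) were also called. Ifi209, Ifi204, Ddx58, Zbp1, Ifit2, Rsad2, Samd9l, Xaf1, Oasl1, Oas1a, Isg20, Herc6, Parp14, Trim30a and Irf9 complete the 27, with log2 fold changes from -2.79 to -1.06.

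Bst2 did not follow this pattern. It was read at 25.5, 40.1, 60.7, 106 and 51.8 CPM in B-like cells and at 48.9, 23.2, 53.3, 94.1 and 81.5 CPM in T-like cells, higher in B-like cells of 3 mice and lower in 2 (log2 fold change -0.03, SE 0.31, edgeR adjusted p = 0.957). Ifi27l2a, at 26.7, 19.8, 2.29, 95.5 and 188 CPM in B-like cells against 104, 130.1, 237, 420.0 and 312 CPM, was lower in all 5 mice but missed the threshold (-2.56, SE 0.78, edgeR adjusted p = 0.0531). Stat2, Ifi35, Sp100, Ifi213, Cmpk2 and Dhx58 were not called either, with log2 fold changes from -1.73 to -0.07. Leaving out 1 mouse at a time cost 5 to 9 of the 27 calls (Ifit3 without mouse 27 or 34), with none lost for Isg15, Ifit1, Rtp4, Slfn5, Ifih1, Ifi203, Oasl2 and Irf7. Without the mouse block, 15 members were called lower instead of 27. B-like cells were deeper, with median UMIs of 2019 to 9558 per mouse against 1188 to 3523 in T-like cells, and the part of that difference in these shares was not tested.

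Upstream in the pathway, B-like cells had less of the receptor chain Ifnar1 (log2 fold change -1.26, edgeR adjusted p = 0.0421), and Ifnar2 did not pass the test (-0.96, edgeR adjusted p = 0.132). Among 37 tested genes of a list of other interferon-inducible genes, 13 were lower and 1 higher. Of 20 genes of IFN-γ and its targets, 8 were lower and 3 higher, led by Ifng itself (-7.89), and Cxcl10, a chemokine induced by either interferon, was lower by 4.90 on the log2 scale. The other pathway genes with the largest changes were Slfn1, Socs3, Ifi208 and Ly6c2, all lower in B-like cells (-6.19, -5.18, -4.96 and -4.84).

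In macrophage-like cells of the same 5 nodules the summed level was near that of T-like cells, but the genes that made it up differed. Ifi204, a DNA-binding member of the p200 family, was at 132, 126, 56.6, 134 and 118 CPM in mice 27, 29, 31, 33 and 34, against 1.66 to 7.62 CPM in T-like cells. Rsad2 was at 496, 187, 382, 254 and 139 CPM against 8.29, 33.7, 57.4, 17.1 and 26.1 CPM. Bst2 was at 242, 90.7, 622, 266 and 286 CPM against 48.9, 23.2, 53.3, 94.1 and 81.5 CPM. Neither Ifi204 nor Rsad2 overlapped between the classes, and for Bst2 the macrophage-like cells of mouse 29 lay just below the highest T-like value. The Rsad2 level rested in part on cells that carried interferon transcripts. In macrophage-like cells with none, Rsad2 was lower but still above the T-like level of the same mouse. The classes then overlapped, since mouse 34 fell below the T-like level of mouse 31. By edgeR's quasi-likelihood test the log2 fold changes were 4.89 for Ifi204 (SE 0.37, adjusted p = 1.41e-05), 3.65 for Rsad2 (SE 0.47, adjusted p = 0.000281) and 2.50 for Bst2 (SE 0.34, adjusted p = 0.00038).

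Of the 34 members tested in this comparison, 11 were higher and 6 lower in macrophage-like cells, against 22.0% and 21.5% of 10270 genes (43.5% in either direction), so these shares lie near the background. The median log2 fold change was -0.17 over the members and -0.07 over all genes. The higher members were Ifi204, Rsad2, Oasl1 (3.63), Ifit2 (2.62), Bst2, Oasl2 (2.12), Slfn5, Oas1a, Cmpk2, Ifih1 and Dhx58. The lower members were Isg20 (-3.04), an exonuclease, Samd9l (-2.27), Sp100 (-2.01), Ifi203, Ifit1 (-1.29, edgeR adjusted p = 0.00765) and Ddx58. The RNA sensors Ifih1 and Ddx58 were thus called in opposite directions, with Ifih1 at 776, 603, 2035, 495 and 497 CPM and Ddx58 at 21.7, 10.9, 23.9, 58.3 and 44.1 CPM in macrophage-like cells. The Ifih1 level rested in part on cells that carried interferon transcripts, since macrophage-like cells with none had 292, 496, 608, 289.5 and 260.0 CPM, above the T-like level in mice 29, 33 and 34 and below it in mice 27 and 31. Isg15, at 702, 175, 2140.0, 252 and 209 CPM, was lower than in T-like cells in all 5 mice but was not called (-0.38, SE 0.25, edgeR adjusted p = 0.25), and Ifit3, Irf7 and Ifi27l2a were not called (-0.54, -0.31 and -0.86). The other 13 tested members that were not called had log2 fold changes from -0.95 to 0.97. The calls of Dhx58, Ddx58, Oasl2 and Slfn5 were lost when certain single mice were left out (Dhx58 without any of the 5), and those of Ifit1, Ifih1, Ddx58 and Dhx58 without the mouse block.

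**Figure D3:**
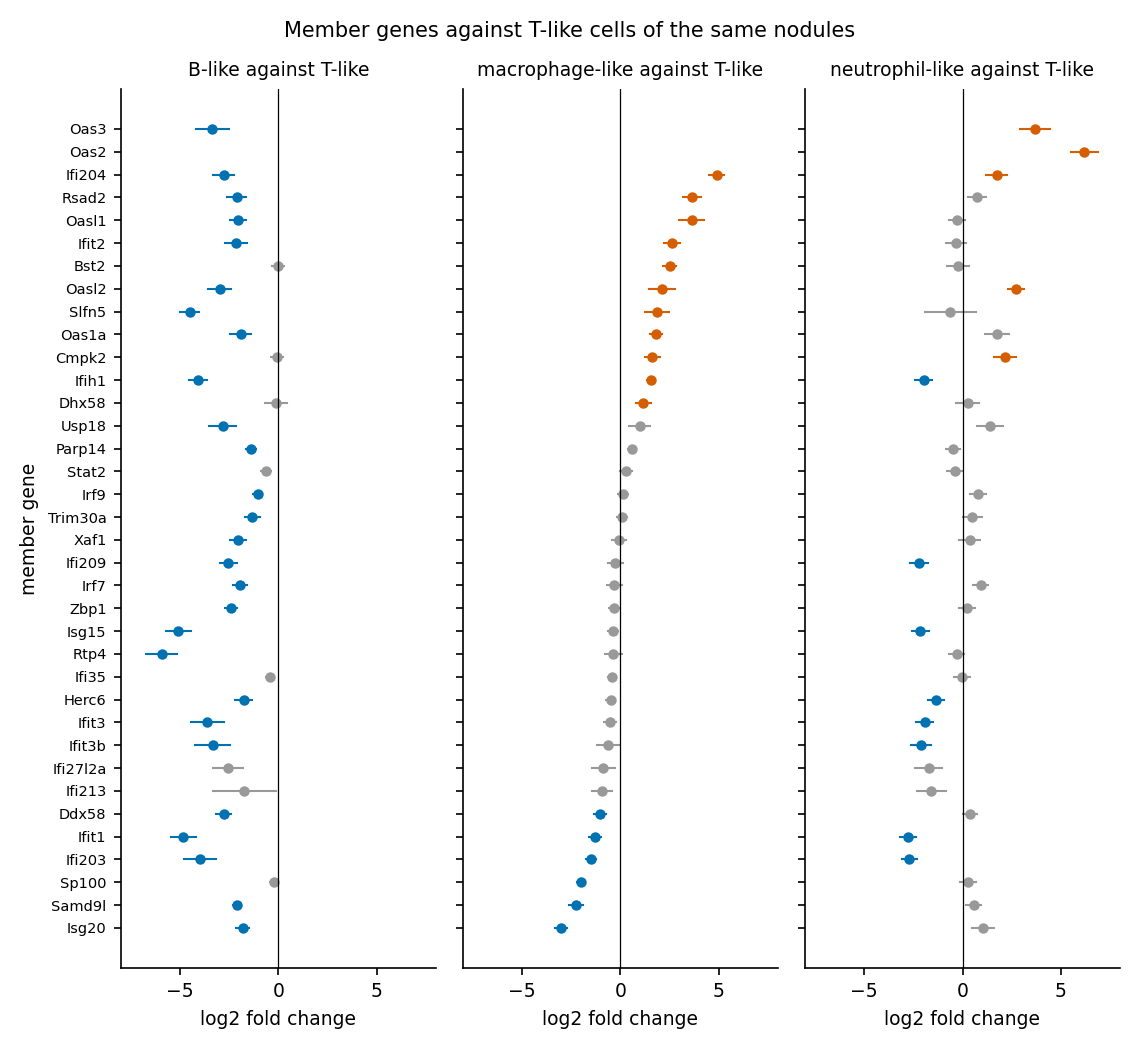
Log2 fold change of each tested member against T-like cells of the same nodules by edgeR, in B-like (5 mice), macrophage-like (5 mice) and neutrophil-like cells (3 mice). Bars are 1 SE, orange marks genes higher and blue genes lower at an adjusted p under 0.05, and grey the rest. B-like cells have 27 blue and 0 orange points, and macrophage-like cells 11 orange and 6 blue.

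Some genes that act before the response were also higher in macrophage-like cells. Ifnb1, which encodes IFN-β, was at 274, 58.4, 729.8, 25.4 and 123 CPM in mice 27, 29, 31, 33 and 34, against 0, 1.72, 1.76, 0.0533 and 1.76 CPM in T-like cells (by edgeR a log2 fold change of 7.31, SE 0.62, adjusted p = 2.55e-05). The endosomal RNA sensor Tlr8 was higher by 8.20 on the log2 scale, and Ifnar2 was higher too, at 239 to 270 CPM against 30.7 to 99.4 CPM (2.47, edgeR adjusted p = 0.000201). Ifnar1 was higher by a small margin (0.59, edgeR adjusted p = 0.0391). Of 13 tested sensors and adaptors 5 were higher, 0 lower and 8 not called, of 6 receptor and signalling genes 3 were higher and 3 not called, and of 38 other interferon-inducible genes 14 were higher and 7 lower, where 22.0% of all genes tested were higher and 21.5% lower. Ifi207 (7.99), Cxcl9 (6.92) and Ifitm3 (5.63) were the other pathway genes with the largest increases, and Ifng was lower (-5.81).

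Neutrophil-like cells could be set beside T-like cells in mice 29, 30 and 32, of which mouse 30 had also given the list. The T-like values of mouse 30 are thus not independent of the choice of genes. Oas2, an oligoadenylate synthetase nearly absent from T-like cells, was at 6.30, 66.1 and 7.56 CPM against 0.143, 0.525 and 0.285 CPM (log2 fold change 6.20, SE 0.68, edgeR adjusted p = 0.000151). Isg15 was at 93.0, 414 and 142 CPM against 595, 2069.8 and 1174 CPM (-2.15, SE 0.44, edgeR adjusted p = 0.00562), and Ifit1 at 37.1, 162 and 50.9 CPM against 444, 1392 and 466 CPM (-2.76, SE 0.42, edgeR adjusted p = 0.000923). Each of these 3 genes was without overlap between the classes. Of 36 members tested 5 were higher (Oas2, Oas3 3.70, Oasl2 2.74, Cmpk2 2.18 and Ifi204 1.74) and 8 lower, where 13.0% and 11.2% of all 13559 genes were (24.2% in either direction). The lower members were Ifit1, Ifi203 (-2.70), Ifi209 (-2.20), Isg15, Ifit3b (-2.11), Ifih1 (-1.98), Ifit3 (-1.93) and Herc6 (-1.36).

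Their median log2 fold change was 0.10 over the members and -0.05 over all genes. Irf7, Bst2 and Ifi27l2a were not called (0.92, -0.23 and -1.71), and the other 20 uncalled members lay between -1.59 and 1.74. Without mouse 30 the higher calls were 3 rather than 5 (Cmpk2 and Ifi204 were lost, and Herc6 among the lower). Oas2, Isg15 and Ifit1 kept their calls without that mouse, and Ifi27l2a was gained. Without the mouse block the higher calls were 3 and the lower calls 3 rather than 8. In the pathway lists Ly6c2 (6.78), Ifitm3 (6.56), Ifnlr1 (5.62), Tlr8 (5.20), Tlr7 (5.08) and Ifi207 (3.26) had the largest increases in neutrophil-like cells, Ifnar2 was higher (1.81, edgeR adjusted p = 0.0333), and Ifnar1 was not called (0.19).

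Between nodules with a T cell and a B cell receptor library, no member of the T-like cells passed the test. T-like cells of the TCR mice 30 and 32 had Isg15 at 2069.8 and 1174 CPM, which lay within the BCR range of 308 to 2777 CPM (log2 fold change 0.65, SE 0.79, edgeR adjusted p = 0.807). The groups also overlapped for Ifit1 (0.81), Ifit3 (0.75), Irf7 (-1.05), Bst2 (-0.53) and Ifi27l2a (0.34), all with SE of 0.50 to 0.89. Of 36 members tested edgeR and DESeq2 each called 0, and 2 had an unadjusted p under 0.05 (Herc6, 1.13, and Stat2, 1.05), while 1 of 13439 genes (0.00744%) was called. Herc6, an ISG15 ligase, was the 1 member whose groups did not overlap, at 275 and 145 CPM in mice 30 and 32 and 58.9 to 122 CPM in the BCR mice, while 12.8% of all genes tested were without overlap. With 2 mice against 5 the SE of Isg15 and Ifit1 was near the size of their fold changes. Mouse 30 set several of these directions, since without it Ifit1, Ifit3 and Ifi27l2a turned to -0.11, -1.29 and -0.33.

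The subset of the liver clone that had led to the list was then described. Of the T-like cells of mouse 30, 2089 carried the receptor of the expanded clone, 394 another TCR and 6826 no called receptor. The summed member level was 5671 CPM in the clone (exact Poisson interval 5607 to 5735), 7911 in T-like cells with another TCR (7736 to 8089) and 8542 in those with none called. Interferon-high cells were 310 of 1986 clone cells (15.6%, interval 14.0 to 17.3), 111 of 376 with another TCR (29.5%, 25.0 to 34.4) and 25.9% of those without a call. The called clone cells were thus below the T-like cells with another TCR in this library, and these are intervals within a single library. Cells without a called receptor may include clone cells. The main cluster, 97.8% from mouse 30, had the clone's receptor segment Trbv1 among its leading genes, and 1945 of its 6842 cells were called clone cells. The clone values are thus those of its called cells only. In mouse 32 the clone stood at 3145 CPM, other TCR-called cells at 3118 CPM and uncalled cells at 4530.5 CPM, with interferon-high shares of 4.58%, 5.84% and 8.22%. The median depths of clone and other called cells were close, at 1984 and 1938.5 UMIs in mouse 30 and 3624.5 and 3068.5 in mouse 32, whereas uncalled cells were shallower, at 1130.5 and 1892.

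The interferon-high cells of the clone did not form a separate peak. Among 1986 clone cells of mouse 30, 243 had 5 distinct members, 161 had 6 and 76 had 7, and the most was 12, so many cells lie near the limit of 6. By construction the interferon-high clone cells had a higher summed level, 13060 CPM against 4485 CPM in the remaining 1676. Isg15 was at 3842 CPM against 1276, Ifit1 at 2305 against 578, Ifih1 at 1288 against 388, Ifi27l2a at 1174 against 447 and Rtp4 at 308 against 69.8 CPM. Bst2 differed less, at 124 against 68.4 CPM, and Ifi203 at 352 against 261 CPM. Oas2, Oas3 and Ifi44 had 1, 0 and 0 UMIs in these 310 cells.

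Some readouts outside the list were then set side by side in both kinds of clone cell. Trbv1, the receptor segment of this clone, had a UMI in 96.5% of interferon-high and 95.9% of other clone cells, and in 7.21% and 8.68% of interferon-high and other cells with another TCR. Cd3e had a UMI in 66.5% and 74.9% of the clone cells, Cd79a had 0 and 5 UMIs and Cd8a had none. Median UMIs were 1982 and 2041 per cell, and the median mitochondrial share was 0.590% and 0.637%. By cluster, 308 of 1842 clone cells (16.7%) were interferon-high in the main cluster. In a smaller and deeper one, with a median of 4534 UMIs, 0 of 130 were, which allows a share of up to about 2.31% (3 cells over the cells drawn).

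**Figure D4:**
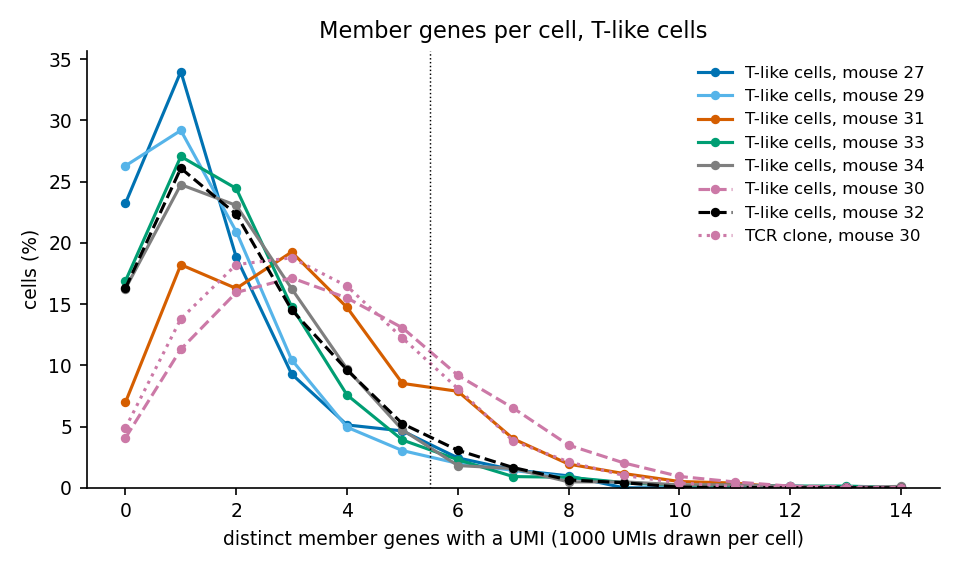
Percent of T-like cells by the number of distinct members with a UMI after 1000 UMIs were drawn per cell, for each mouse (solid lines BCR, dashed lines TCR) and for the TCR clone of mouse 30 (dotted). The vertical line marks the limit of at least 6, and the curves fall smoothly through it, with 161 clone cells at 6 and 243 at 5.

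Genes outside the list were then compared between interferon-high and other T-like cells in all 7 mice. These genes were not counted in dividing the cells. Genes that vary together with the members must still differ between groups divided by the members. The p-values below therefore describe the groups and are no separate support for the split. Ppp1r15a, a phosphatase subunit of the integrated stress response, had the smallest p. It was at 1640.1, 3787, 3608, 5590.5, 2674, 1008 and 2388 CPM in interferon-high cells of mice 27, 29, 30, 31, 32, 33 and 34, against 180.3, 557, 1164, 1511, 785, 279 and 409.6 CPM in the other T-like cells, higher in 7 of 7 mice (log2 fold change 2.20, SE 0.12, edgeR adjusted p = 4.08e-10). Cxcl10 ranged from 1616 to 8971 CPM against 118 to 2521 CPM (2.78, SE 0.18, edgeR adjusted p = 3.11e-09), and was higher in interferon-high cells of every mouse.

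Of 8669 genes tested 7.64% were called, 450 (5.19%) higher and 212 (2.45%) lower, and without the mouse block 24 were higher and 0 lower. Leaving out mouse 30 gave 295 higher. The lower calls varied with the mice, falling to 110, 131, 123 and 126 without mice 30, 32, 33 and 34. After Ppp1r15a and Cxcl10, genes with the smallest p included Ifit1bl1 (2.39), a relative of Ifit1, Cd274 (1.59), which encodes the inhibitory ligand PD-L1, Gbp5 (2.59), a guanylate-binding protein, AW011738 (1.83), Trim26 (1.66), Tnf (2.12) and Ccrl2 (2.22). Of 32 tested genes of the list of other interferon-inducible genes 22 were higher and 0 lower, and of 17 genes of IFN-γ and its targets 13 were higher and 0 lower, including Gbp6 (1.72), Gbp3 (1.71) and Gbp2 (1.71). Ddx60 (1.78) had the largest change of the former list. Their median log2 fold changes were 0.82 and 1.25, and that of all genes tested was -0.06.

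The lists held 39 of the 450 higher genes. Ifnar1 was higher (0.61, in 6 of 7 mice, edgeR adjusted p = 0.00322) and Ifnar2 was not called (0.23). Some genes chosen after their values were seen moved in the same cells. The heat-shock gene Hspa1a (1.11, edgeR adjusted p = 1.56e-06) and the immediate early genes Fos (0.88, in 6 of 7 mice) and Jun (0.83), which rise in many cells upon tissue dissociation, were higher, and so were Atf3 (1.70), Ifng (1.09) and Il10 (1.08, in 6 of 7 mice), whereas the proliferation marker Mki67 was lower (-1.08, in 6 of 7 mice, edgeR adjusted p = 0.00623). The part of dissociation in the interferon-high state was not tested. Cd8a, a marker of the CD8 T cell subset, was lower in interferon-high cells of 7 of 7 mice (-0.89, edgeR adjusted p = 0.00604), at 1.87 to 85.3 CPM against 3.85 to 139.8 CPM, and its part in the split was not tested. Cd4, Cd3e and Cd79a were not called (0.17, -0.20 and -0.28).

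The B cell clones were compared with the few other B-like cells that had a called BCR, in mice 29, 31, 33 and 34. Only clone cells of the B-like class were used, which were 295 of 323, 3956 of 3980, 880 of 1094 and 931 of 1417 called clone cells. Many of the rest lay in unnamed clusters. The clone cells used held 553, 979.9, 820.4 and 969 CPM of the members, and the 32, 41, 22 and 23 other called cells 766, 2114, 1714 and 1189 CPM. The clone was lower than these few cells in each mouse. B-like cells with no called receptor held 594, 882, 1000.3 and 962 CPM, which was above the clone in mice 29 and 33 and below it in mice 31 and 34. Clone cells were deeper, with median UMIs of 11137, 11209.5, 14922.5 and 10001 against 6165.5, 2043, 8353 and 9219 in the other called cells. Of 25 members tested edgeR called 0, 9 had an unadjusted p under 0.05, and DESeq2 called 2 lower (Ifi203 and Zbp1), while edgeR called 0.0110% of 9082 genes higher and 0.0440% lower (0.0551% in either direction). The median log2 fold change was -1.15 over the members and 0.14 over all genes. Zbp1, a sensor of Z-form nucleic acid, was at 2.56, 3.33, 27.9 and 6.58 CPM in the clones and 26.97, 14.4, 97.6 and 21.6 CPM in the other cells (-2.22, SE 0.51, edgeR adjusted p = 0.186). Isg15 (-1.26), Ifi27l2a (-1.81), Ifit1 (-0.44), Irf7 (0.05) and Bst2 (-0.01) were not called, and Isg15 was lower in the clone of 2 mice and higher in the other 2. The B-like clone cells of mouse 27 (1217 of 1783), with no other called cells in number, were at 433 CPM.

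Transcripts of the interferons themselves sat in very few cells. Of 20 genes for type I and III interferons, 17 had a UMI, 5084 in all, in 896 cells. The 359 cells with at least 3 such UMIs, 0.475% of all cells, held 87.2% of them. Ifnb1 accounted for 3462 UMIs, Ifna4 for 866, Ifna2 for 430 and Ifna1 for 167. Ifna5 (30), Ifnl2 (28), Ifnz (23), Ifnl3 (15), Ifnk (14), Ifna6 (12), Ifna11 (12), Ifna13 (11), Ifna9 (5), Ifna16 (4), Ifna15 (3), Ifna14 (1) and Ifnab (1) gave the rest. The Ifna genes are near-identical copies, so the division among them is uncertain.

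Macrophage-like cells of mouse 31 held the most of these UMIs, 1639 or 891 CPM, 60 of their 377 cells having at least 3. In the other BCR mice these cells held 218, 245, 134 and 53 ligand UMIs (mice 27, 29, 33 and 34), and 10, 21, 12 and 5 cells with at least 3. The T-like cells of mice 30 and 32 held 351 and 635, or 23.1 and 22.6 CPM, whereas those of the BCR mice stayed at 7.62 CPM or below. In T-like cells of mouse 32 Ifna4 (296 UMIs) exceeded Ifnb1 (244 UMIs). The 11 DC-like cells of mouse 30 held 129 UMIs, a higher level of 2044 CPM, of which 102 were in 1 cell, and a single endothelial-like cell of mouse 29 held 126 of the 190 of its class. The 10 cells with the most ligand UMIs held 26.6% and 38.5% of the T-like totals of mice 32 and 30, 41.2% of the macrophage-like total of mouse 31 and 69.8% to 100% of those of the other BCR mice.

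Cells with at least 3 ligand UMIs also had more of the members, in every class and mouse with at least 5 such cells, a comparison chosen after the values were seen and not tested. In macrophage-like cells of mice 27, 29, 31, 33 and 34 the summed level was 20429.5, 12357, 14615, 19075 and 6635 CPM, against 2188, 1532, 3236.5, 2662 and 1901 CPM in those with no ligand UMI. The monocyte-like cells of mouse 30 gave 31357 against 5197 CPM. The T-like cells of mice 30 and 32 gave 12857 and 5769 CPM against 7442 and 3351 CPM. In B-like cells of mouse 31, 28 cells stood at 5234 against 907 CPM.

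**Figure D5:**
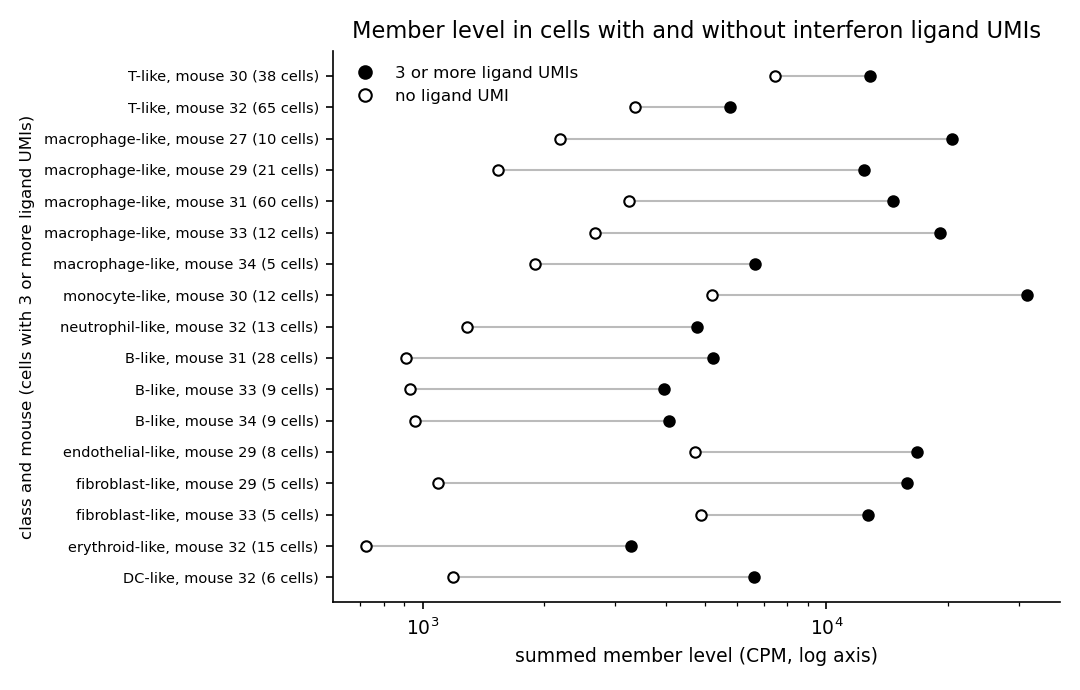
Summed member level in CPM (log axis) in cells with at least 3 interferon ligand UMIs (filled) and with none (open), by class and mouse with at least 5 such cells. Filled points lie to the right of open points in each row, at 5769 against 3351 CPM in T-like cells of mouse 32 and 20429.5 against 2188 CPM in macrophage-like cells of mouse 27.

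Members did not differ alike between these macrophage-like cells. In mice 27, 29, 31, 33 and 34, Rsad2 was at 3009, 1525, 840.3, 2712 and 1106 CPM in ligand-bearing cells against 169.7, 114, 67.2, 154 and 50.9 CPM in cells with none. Ifit2 was at 1467, 2012, 1173, 2188 and 216 against 64.5, 65.3, 143, 53.0 and 83.1 CPM, and Ifih1 at 4385, 2541, 4204, 5670.1 and 3102 against 292, 496, 608, 289.5 and 260.0 CPM. Bst2, by contrast, was at 272, 83.5, 639.5, 180.3 and 351 against 239, 91.8, 642, 268 and 284 CPM. Rsad2, Ifit2 and Ifih1 were higher in the ligand-bearing cells of each mouse, while Bst2 was higher in 2 mice and lower in 3. Ligand-bearing cells were deeper, with median UMIs of 11924.5 against 1622.5 in mouse 31 and 5211 against 4301 in mouse 29. Their macrophage markers summed to 4560 to 10978 CPM against 3681 to 12270.4 CPM. The ligand-bearing T-like cells of mouse 30 had Cd3 genes at 1074 against 1653 CPM and macrophage markers at 8.59 against 3.16 CPM (1 UMI in the former). Those of mouse 32 were deeper, with median UMIs of 7050 against 2835.5. Some ligand-bearing groups held more markers of another class. Macrophage markers were at 716 against 171 CPM in fibroblast-like cells of mouse 33. Cd3 genes were at 131 against 25.9 CPM in erythroid-like cells of mouse 32 and 119 against 13.3 CPM in B-like cells of mouse 34, but 2.90 against 3.41 CPM in those of mouse 31. The part of mixed cells was not tested.

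A sub-cluster of 131 macrophage-like cells, 120 of them from mouse 31, held 1688 of the ligand UMIs and 10504 CPM of the members. Without it the macrophage-like mean over mice was 2646 CPM rather than 3897.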

How the data were processed

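RNA of single cells from the white nodules of 7 mice was measured. The authors deposited a matrix of raw counts of UMIs per gene and cell for each sample, with receptor contig tables. The submitters' processing notes name the builds GRCm38 and mm10. Whether the libraries read the 5′ or 3′ end was not settled here. Cells with at least 201 UMIs, 101 genes and at most 10% mitochondrial UMIs were kept. Cells were clustered with scanpy 1.11.5 (2000 variable genes less members and pathway genes, 30 components, leidenalg 0.10.2, resolution 1) and classes named from fixed markers. No doublet caller was run, and cells carrying B and T markers together (0.0449% to 2.75% of a library) were left out as an alternative.

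Counts were summed per mouse and class (at least 50 cells, or 20 for clones and interferon-high cells) and fitted with edgeR 4.0.16 (filterByExpr, TMM, quasi-likelihood test, R 4.3.3), adjusted over all genes tested by Benjamini-Hochberg. The mouse was a block wherever classes or cells of the same mouse were compared, since they share animal and library. The threshold was an adjusted p of 0.05. DESeq2 1.42.0, no filter, no block, other class rules and each mouse left out were the alternatives. The fits were tested on simulated data. There edgeR recovered 1.02% of 2-fold and 41.8% of 4-fold changes between TCR and BCR mice. For B clones it recovered 7.45% and 74.7%, and for B-like against T-like cells 7.14% and 70.8%. A gene that was not called may therefore still differ by such a fold. CPM intervals are exact Poisson and share intervals Clopper-Pearson, both at 95% and covering counting error only. Bounds given for 0 interferon-high cells are 3 cells over the cells drawn.

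Isg15, Ifit1, Ifit3, Mx1 (not analysed here), Irf7, Bst2, Ifi27l2a, Ifnar1 and Ifnar2 were always to be named, with at most 8 further called members and 6 called pathway genes by fold, and the 10 outside genes of smallest p, less any that are not reported here. The members and lists were chosen with earlier results of these data known.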

Additional observations from a re-analysis of the deposited data

Results flagged for a closer look

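Mouse 31 stood apart from the other 4 BCR mice in 13 of 36 sets of values examined, by Dixon's test, which marks about 1 in 20 groups by chance. The sets share cells and genes, so they are not separate findings. In its T-like cells the summed member level was 7774 CPM (the others 2489 to 2910.0), the share of interferon-high cells 16.0% (4.89 to 5.34%), Isg15 2777 CPM (308 to 897), Ifit1 1492 CPM (99.1 to 444) and Ifih1 1114 CPM (139 to 318).

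In its macrophage-like cells Isg15 was at 2140.0 CPM (175 to 702 in the others), Ifih1 at 2035 CPM (495 to 776) and Ifit2 at 545 CPM (90.5 to 219). In its B-like cells Ifit1 was at 117 CPM (2.42 to 21.0), Ifit3 at 29.4 CPM (0.740 to 4.35), Ifih1 at 98.0 CPM (6.09 to 16.98), Rsad2 at 31.2 CPM (1.82 to 5.72) and Ifit2 at 67.2 CPM (3.39 to 8.30). Mouse 31 gave the only spleen nodule among the BCR mice, so organ and mouse cannot be told apart.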

How the results depend on the processing

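Of 207 alternative values for counts of calls, levels and shares, 185 kept their direction and stayed on their side of the threshold or within 1.5 times, and of 517 for single genes 460 did. Without the replicate block, which pairs cells of the same mouse, the members called lower in B-like cells were 15 rather than 27, those called in neutrophil-like cells 3 higher and 3 lower, and the genes called in interferon-high cells 24 higher and 0 lower. DESeq2 called 2 members lower in B clones and 134 genes lower in interferon-high cells, and without a filter 676 genes were lower. With classes taken from marker UMIs, 4 members were lower in neutrophil-like cells, 93 genes lower in interferon-high cells, and the B-like share was 0.429%. With at least 8 distinct members, 270 genes were higher and 53 lower, and with at least 4 the shares were 25.1% in T-like, 18.0% in macrophage-like and 1.37% in B-like cells.

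With each mouse left out in turn, the members lower in B-like cells numbered 18 to 22, those higher in neutrophil-like cells 3 (without mouse 30) to 7, and the genes in interferon-high cells 295 (without mouse 30) to 498 higher and 110 to 232 lower (110, 131, 123 and 126 without mice 30, 32, 33 and 34). Directions turned only for genes that were not called. Bst2 in B-like cells moved to 0.028 without a filter, 0.0071 without the replicate block and -0.22 to 0.25 with a mouse left out, and in neutrophil-like cells to 0.23 without the block and -1.04 to 0.33. Irf7 in macrophage-like cells was 0.038 without the block. Between TCR and BCR mice the ranges were -0.11 to 1.74 (Ifit1), -1.29 to 1.57 (Ifit3) and -0.33 to 0.80 (Ifi27l2a), each lowest without mouse 30. In B clones Irf7 was -0.0024 with DESeq2, -0.037 without the block and -0.67 to 1.11, Bst2 0.021 without a filter and -0.35 to 0.40, and Ifit1 -1.36 to 0.39. The cause of these shifts was not tested.

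Alternatives chosen after seeing the data were macrophage-like cells without the shallow or the ligand-rich sub-clusters, T-like cells outside the clone, and shares with each mouse left out. Monocyte-like cells had at least 50 cells in 1 mouse, no cluster was NK-like, and no TCR mouse had 50 macrophage-like cells, so those planned comparisons could not be fitted. Counts of a few cells limit the ligand and clone values, and 2 TCR mice limit the receptor comparison.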
